A study of Mus musculus with 6 samples.

Results

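The genes described here encode 8 proteins of the dense core secretory granule, namely Chgb, Chga, Scg2, Scg3, Scg5, Pcsk1, Pcsk2 and Cpe. They were picked by symbol, by a rule that sets no condition on their measured values. All 8 had a row among the 33676 genes with at least 1 transcript in the deposited table. The list was, however, drawn up with earlier results of these data known. In degeneration, the study names Chgb among the most significant of the changed genes that it classed as transcription factors. The count of members called below is therefore not independent of these data. RNA was taken from the cochlear modiolus, the bony axis around which the cochlea winds and which houses the spiral ganglion neurons (SGNs), of male mice of the C57BL/6 strain that were 8 weeks old at treatment. The 3 control libraries came from mice given saline, and the 3 degenerated libraries from mice given 1 g/kg kanamycin sulfate subcutaneously and 0.4 g/kg furosemide intraperitoneally, taken 30 days later. The labels name no deleted gene in either group. The drugs destroy the hair cells first, so the SGNs lose input in a cochlea where few hair cells remain. Nothing says how many mice stood behind a library, so p-values measure only the spread between these libraries, which may be technical.

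Neurons and endocrine cells store neuropeptides and growth factors in dense core granules, apart from the small vesicles that hold fast transmitters. The granins (chromogranins and secretogranins) are acidic proteins that condense at the trans-Golgi network and help to form the granule. Inside it, prohormone convertases cut the precursors at paired basic residues, and a carboxypeptidase then trims the basic residues left at the ends.

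Chgb and Chga, the 2 chromogranins, were lower in degenerated than in control libraries and stood at 53.3% and 54.3% of the control level. The granule genes for secretogranin III (Scg3), prohormone convertase 2 (Pcsk2) and carboxypeptidase E (Cpe) lay within the range of a log2 fold change of -0.17 to 0.07. The remaining members lay further from 0, Scg5 at -0.47, Scg2 at 0.82 and Pcsk1 at 0.54, each with a 95% interval that includes 0. The interval of Scg5 also includes the estimates of Chgb and Chga. The median over the 8 genes was -0.06, with 4 positive and 4 negative, beside -0.003 over all 14118 genes tested. The criteria for a call (p below 0.01 before adjustment and a log2 fold change beyond 0.2 in size) are those the study states for its comparison of knockout with wild type mice, not for this one. By them, edgeR's quasi-likelihood test called 2 of the 8 genes lower and 0 higher, where 0.715% of all genes tested were called lower and 2.01% higher. After Benjamini-Hochberg adjustment over all genes, 0 of the 8 passed 0.05 by edgeR (0% of all genes tested) or by limma-voom, and 2 passed by DESeq2, as did 2.96% of all genes to which it gave an adjusted p. Before adjustment 2 of the 8 passed 0.05 by edgeR, as did 9.68% of all genes tested.

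The labels name the cell type as spiral ganglion neuron, while the study's methods name the source as tissue of the cochlear modiolus. How far other cochlear tissue was carried along is not stated. Total counts were between 12480876 and 15549319 per library. Of 15 pan-neuronal genes, 14 were tested, 12 of them with a negative log2 fold change (median -0.47), and 0 were called. Their summed level in CPM (counts scaled to a common library total with TMM factors) was 9982 to 13513 in control and 6288 to 9006 CPM in degenerated libraries, without overlap. In bulk tissue, fewer neurons and less RNA per neuron cannot be told apart. A list of 20 SGN markers summed to 4773 to 6428 CPM in control and 3096 to 4662 CPM in degenerated libraries. Of its 18 tested genes 2 were called lower. The log2 fold change was positive in 8 of them and negative in 10 (median -0.07), so the lower sum does not describe every marker. Hair cell markers summed to 1527 to 1959 CPM and 903 to 1161 CPM, and Ocm, the calcium-binding protein of outer hair cells, went from 140 to 173 CPM in control libraries to 0.789 to 3.90 CPM. Of 13 hair cell genes tested, 3 were called lower, and 10 had a negative and 3 a positive log2 fold change. Schwann cell markers (5518 to 9791 and 4900 to 7728 CPM), bone markers (5582 to 7721 and 5849 to 6366 CPM) and blood and marrow markers (6616 to 49687 and 4890 to 19578 CPM) overlapped between the groups in their sums, although all 7 bone genes and all 10 blood and marrow genes tested had negative log2 fold changes and 2 bone genes were called lower. Macrophage markers summed to 417 to 475 CPM and 536 to 714 CPM, with 2 of 5 tested genes called higher. Muscle markers summed to 729 to 1189 CPM and 328 to 517 CPM, with 1 of 3 tested genes called lower, of 9 listed. Markers of stria and supporting cells summed to 2124 to 2748 CPM and 2664 to 3636 CPM. Mast and endocrine cell markers summed to 96.7 to 165 CPM and 79.4 to 129 CPM, most of it from Kit, and Cpa3, Dbh and Pnmt were at 0 in every library. Pvalb stood in the lists of SGN, hair cell and muscle markers, and Th in those of SGNs and of mast and endocrine cells. The sums of these lists are therefore not independent. The part of these cell types in the results below was not tested.

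The regions around the annotated starts of 7 of the 8 genes share a short sequence, the core of the cyclic AMP response element (CRE), to which CREB family factors bind. Windows of 300 bases from RefSeq on GRCm38.p6, with 250 before and 50 after the start, were available for these 7 and matched by symbol. For Cpe there was no window, so it was not examined. The letters TGACG, on either strand, were present in the windows of all 7, against 20.8% of 32851 windows of all genes. The full palindrome TGACGTCA, which contains that core, was present in 3 of the 7, namely Chgb, Scg2 and Pcsk1, against 1.79% of all windows. The stretches of 30 bases below show the palindrome in the 3 genes that carry it and the shorter core in Chga and Scg3. Capitals mark the match, and the strand is that of the gene.
Chgb, chr2:132781559-132781588, plus strand, match 72 bases before the RefSeq start: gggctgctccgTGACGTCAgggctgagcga
Scg2, chr1:79440076-79440105, minus strand, match 68 bases before the start: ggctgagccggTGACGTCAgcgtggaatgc
Pcsk1, chr13:75089768-75089797, plus strand, match 78 bases before the start: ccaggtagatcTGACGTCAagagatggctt
Chga, chr12:102554885-102554914, plus strand, match 44 bases before the start: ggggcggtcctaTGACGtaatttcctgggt
Scg3, chr9:75684069-75684098, minus strand, match 30 bases before the start: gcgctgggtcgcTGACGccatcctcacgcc
GENCODE places the starts of Chgb and Scg2 further upstream, so that these 2 stretches lie inside the annotated gene, in a first exon, while those of Pcsk1, Chga and Scg3 lie outside it. A match of letters is a description and shows no bound factor. The letters TATAAA were present in the window of Chga among the 7, against 13.6% of all windows.

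Chgb (chromosome 2 of GRCm38 from 132781278 to 132795079) encodes chromogranin B, a granin that is cut into several smaller peptides. It had 559, 444 and 565 CPM in control replicates 1, 2 and 3, and 266, 324 and 246 CPM in degenerated replicates 1, 2 and 3. Every degenerated library lay below every control library. Its mean was 523 ± 68.4 CPM (SD, n = 3) in control and 279 ± 40.5 CPM (SD, n = 3) in degenerated libraries. This gave a log2 fold change of -0.91, whose standard error (SE) was 0.16 and whose 95% interval ran from -1.29 to -0.53, at an adjusted p of 0.240 by edgeR and 0.000463 by DESeq2. Ordered by p in edgeR, it was gene 61 of 14118.

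Chga (chromosome 12 from 102554969 to 102565028) encodes chromogranin A, the most widely used marker protein of neuroendocrine cells and the precursor of vasostatin and catestatin. It had 442, 309 and 346 CPM in the control libraries and 215, 223 and 157 CPM in the degenerated libraries. The groups again did not overlap, with every degenerated library below the lowest control library. Its mean was 366 ± 68.3 CPM (SD, n = 3) in control and 198 ± 35.6 CPM (SD, n = 3) in degenerated libraries. This gave a log2 fold change of -0.88 (SE 0.20, 95% interval -1.36 to -0.41), at an adjusted p of 0.307 by edgeR and 0.0149 by DESeq2. Chga narrowly failed the criteria once degenerated replicate 3 was left out (-0.74 on the log2 scale, unadjusted p 0.0102 by edgeR). Chgb and Chga were the members whose groups did not overlap, 2 of 8 in the lower direction, where 7.37% of all genes tested did the same. In the higher direction it was 0 of 8, against 10.3%.

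**Figure D1:**
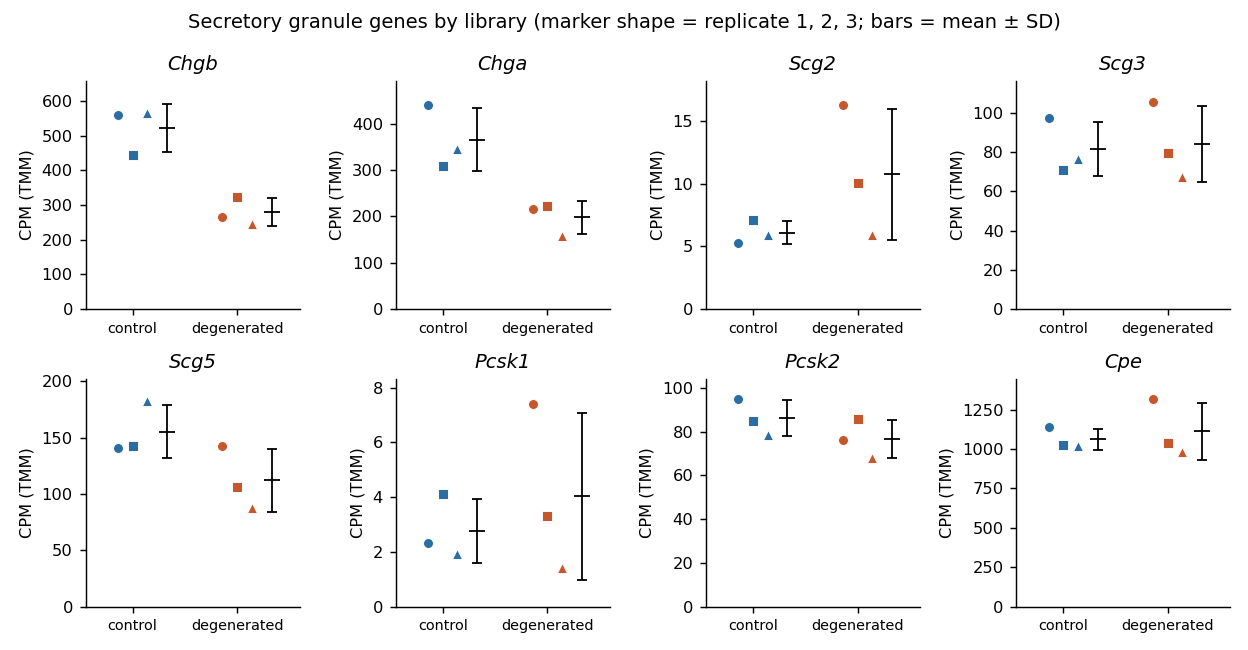
CPM of the 8 granule genes in each library (vertical axes from 0, 1 scale per gene), with control libraries in blue and degenerated libraries in orange, marker shapes for replicate numbers and bars for the mean ± SD of 3 libraries. The degenerated points lie below all control points for Chgb and Chga, and the groups overlap in the other 6 genes.

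No other secretogranin was called. Scg2 (chromosome 1 from 79434669 to 79440120) encodes secretogranin II, the precursor of secretoneurin, and was scarce in these libraries, with 80, 100 and 92 counts in control and 238, 143 and 75 in degenerated libraries. As CPM these were 5.30, 7.08 and 5.87 CPM against 16.3, 10.1 and 5.92 CPM. Degenerated replicates 1 and 2 were above the controls and replicate 3 was among them. The log2 fold change of 0.82 (SE 0.42) had a 95% interval of -0.21 to 1.85 (adjusted p of 0.596 by edgeR), and it was 0.38 without degenerated replicate 1.

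Scg3 (chromosome 9 from 75643189 to 75684056) encodes secretogranin III, which binds chromogranin A and the cholesterol-rich granule membrane. It had 97.2, 70.7 and 76.6 CPM in control and 106, 79.4 and 67.4 CPM in degenerated libraries, so that the groups covered nearly the same range. The log2 fold change was 0.05 with a 95% interval of -0.48 to 0.57 (adjusted p of 0.958 by edgeR), an interval that does not reach the estimates of Chgb and Chga. Scg5 (chromosome 2 from 113776362 to 113829121) encodes 7B2, the chaperone that Pcsk2 needs in order to mature. It had 141, 143 and 182 CPM in control and 143, 106 and 87.8 CPM in degenerated libraries. Degenerated replicate 1 lay within the controls and the other 2 below them, and the log2 fold change of -0.47 had a 95% interval of -0.99 to 0.05 (adjusted p of 0.555 by edgeR). That interval includes 0 and also the estimates of Chgb and Chga, and the log2 fold change of Scg5 was -0.69 without degenerated replicate 1 and -0.32 without degenerated replicate 3.

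Among the enzymes, Pcsk2 (chromosome 2 from 143546156 to 143816285), the convertase that needs 7B2, had 95.1, 84.6 and 78.6 CPM in control and 76.1, 85.6 and 68.1 CPM in degenerated libraries. Degenerated replicate 2 lay among the controls, and the log2 fold change was -0.17 with a 95% interval of -0.52 to 0.18 (adjusted p of 0.758 by edgeR). Pcsk1 (chromosome 13 from 75089826 to 75134861), the convertase that acts early in the granule, was the scarcest of the 8, with 35, 58 and 30 counts in control and 108, 47 and 18 in degenerated libraries. Its degenerated libraries spanned from below the lowest to above the highest control, the log2 fold change of 0.54 had a 95% interval of -1.06 to 2.15 (adjusted p of 0.827 by edgeR), and it was -0.24 without degenerated replicate 1. The interval of Pcsk1 leaves its direction undetermined.

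Cpe (chromosome 8 from 64592542 to 64693054), the carboxypeptidase that trims basic residues, was the most abundant member. It had 1137, 1027 and 1019 CPM in control and 1319, 1038 and 981 CPM in degenerated libraries. The groups overlapped, with the degenerated libraries on both sides of the controls. The log2 fold change was 0.07 with a 95% interval of -0.28 to 0.42 (adjusted p of 0.906 by edgeR), which was the narrowest interval of the 8 and excluded a fall of the size estimated for Chgb or Chga.

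Transcript by transcript, 16 of the 24 annotated transcripts of these genes were in the table, and every one for Chgb, Scg2 and Pcsk2. For Chga, Cpe, Pcsk2 and Chgb a single coding transcript held at least 99.5% of the counts of the gene in each library. Of the 16, 13 passed the filter on low counts and were tested across all 26065 transcripts, and 2 of them were called lower, Chgb-201 and Chga-201, where 0.652% of all transcripts tested were. None was called higher, against 1.14% of all transcripts tested. After adjustment 0 of the 13 passed 0.05 by edgeR (0.0153% of all transcripts tested did) and 2 passed by DESeq2 (2.07% of all by DESeq2), while 3 passed 0.05 by edgeR before adjustment (7.55% of all). Chgb-201 (2740 bases, 5 exons) had a log2 fold change of -0.95 (SE 0.15) and Chga-201 (1883 bases, 8 exons) one of -0.93 (SE 0.20). Scg5-201 (1208 bases), the listed coding transcript of Scg5, had 146, 146 and 185 CPM in control and 142, 105 and 87.8 CPM in degenerated libraries on the scale of the transcript fit, where the groups just did not overlap, and its log2 fold change was -0.51 (SE 0.22, adjusted p of 0.673 by edgeR).

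Scg2 had 2 coding transcripts, both with low counts. Scg2-201 (2 exons) had 28, 32 and 55 counts in control and 155, 66 and 75 in degenerated libraries, without overlap, a log2 fold change of 1.43 with a 95% interval of 0.25 to 2.61 (adjusted p of 0.614 by edgeR). Scg2-202 (3 exons) had 52, 68 and 37 counts in control and 83, 77 and 0 in degenerated libraries. Its log2 fold change of 0.02 had a 95% interval of -3.40 to 3.44, which includes the estimate of Scg2-201. Without degenerated replicate 3 it was 0.60, so a difference between the 2 transcripts was not shown. The share of Scg2-201 in the counts of the gene was 32.0% to 59.8% in control and 46.2% to 100% in degenerated libraries, and these shares did not differ beyond their spread (exact permutation test, two-sided, p = 0.2, where 0.1 is the smallest that 3 libraries against 3 allow). The split between them rests on how the authors' counting divided reads of shared exons.

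For Scg3, the first annotated transcript was not listed, and Scg3-202 held 95.2% to 98.2% of the listed counts. It had a log2 fold change of 0.008 (SE 0.23), and the short transcripts Scg3-204 and Scg3-205 had fewer than 30 counts in each library. Chga-202, a retained intron, had 8 to 21 counts. Cpe-204, a transcript of 688 bases without a coding part, had 18, 15 and 17 counts in control and 29, 30 and 21 in degenerated libraries, a log2 fold change of 0.74 (SE 0.32, adjusted p of 0.673 by edgeR). It held 0.103% to 0.106% of the counts of Cpe in control and 0.150% to 0.204% in degenerated libraries (exact permutation test, two-sided, p = 0.1). In all, 3 of the 13 tested transcripts had groups that did not overlap in the lower direction and 2 in the higher, beside 7.24% and 9.13% of all transcripts tested.

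**Figure D2:**
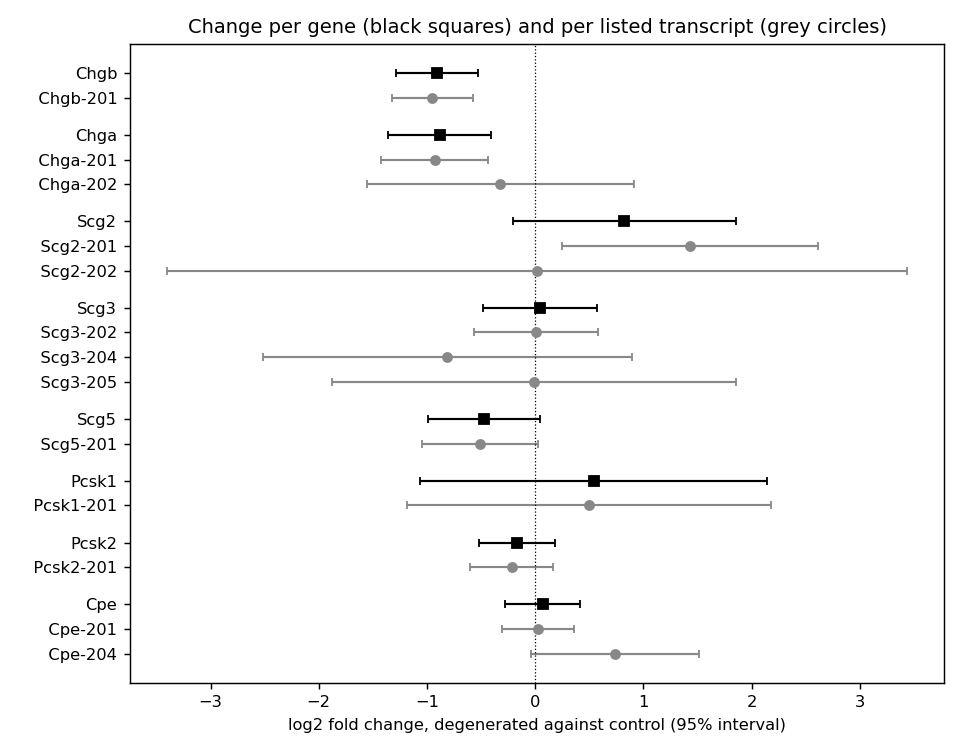
The log2 fold change of degenerated against control libraries (horizontal axis) with its 95% interval from edgeR, for each gene (black squares) and each of its tested transcripts with a mean count of at least 10 (grey circles). The intervals of Chgb and Chga lie wholly below 0, those of the other 6 genes include 0, and Scg2-202 has the widest interval.

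Levels between genes were compared per length, as TPM, the counts divided by transcript length and scaled to the same sum in each library, over the listed transcripts. In control libraries Cpe came first with 920 ± 118 TPM, then Chga with 359 ± 92.3, Chgb with 350 ± 63.6, Scg5 with 235 ± 34.9, Scg3 with 76.6 ± 18.9, Pcsk2 with 33.4 ± 5.24, Scg2 with 4.61 ± 0.441 and Pcsk1 with 0.995 ± 0.367 TPM (SD, n = 3 each). Chga and Chgb could not be separated, since their libraries overlapped, and the other neighbours did not overlap. In degenerated libraries Cpe had 1036 ± 139, Chga 209 ± 40.2, Chgb 201 ± 36.0 and Scg5 182 ± 40.6 TPM (SD, n = 3 each). There the levels of Chga, Chgb and Scg5 overlapped. The order of the others was kept. The listed levels of Scg5, Scg3, Chga, Pcsk1 and Cpe leave out the transcripts that were not listed.

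Ratios of 2 members within a library, a description chosen after the values had been seen, do not depend on library size. The ratio of Chgb to Chga counts was 1.27, 1.44 and 1.63 in control and 1.24, 1.46 and 1.56 in degenerated libraries, which is nearly the same range (mean log2 difference -0.03, exact permutation test, two-sided, p = 0.8, 28 pairs compared). The ratio of Chgb to Cpe was 0.492, 0.432 and 0.555 in control and 0.202, 0.312 and 0.251 in degenerated libraries, a mean log2 difference of -0.97. For Chga and Cpe it was 0.388, 0.301 and 0.340 against 0.163, 0.214 and 0.161, a mean log2 difference of -0.94. Neither ratio overlapped between the groups, while the ratio of Scg3 to Cpe did, with a mean log2 difference of -0.02. Of the 28 pairs, 13 had ratios that did not overlap, each at the smallest exact permutation p of 0.1, or 0.215 after Benjamini-Hochberg adjustment over the pairs. Among these were the ratios of Chgb to Scg2, Scg3, Scg5, Pcsk2 and Cpe, and those of Chga to Scg2, Scg3, Pcsk2 and Cpe, all lower in degenerated libraries. The other 4 were Scg5 to Cpe, also lower (mean log2 difference -0.55), and Scg3 to Scg5 (0.52), Scg2 to Scg5 and Scg2 to Pcsk2, all higher. Pairs that share a gene are not independent. Most of the 13 contain Chgb or Chga, whose CPM already did not overlap between the groups. The share of ratios without overlap among pairs of all genes was not determined. Chga to Scg5 overlapped, with 3.12, 2.17 and 1.90 in control and 1.51, 2.09 and 1.79 in degenerated libraries (mean log2 difference -0.39, exact permutation test, two-sided, p = 0.2). As a share of the counts of the 8 genes, Chgb went from 21.2% to 24.8% in control to 12.4% to 17.3% in degenerated libraries, and Cpe from 44.8% to 49.2% to 55.5% to 61.4%.

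**Figure D3:**
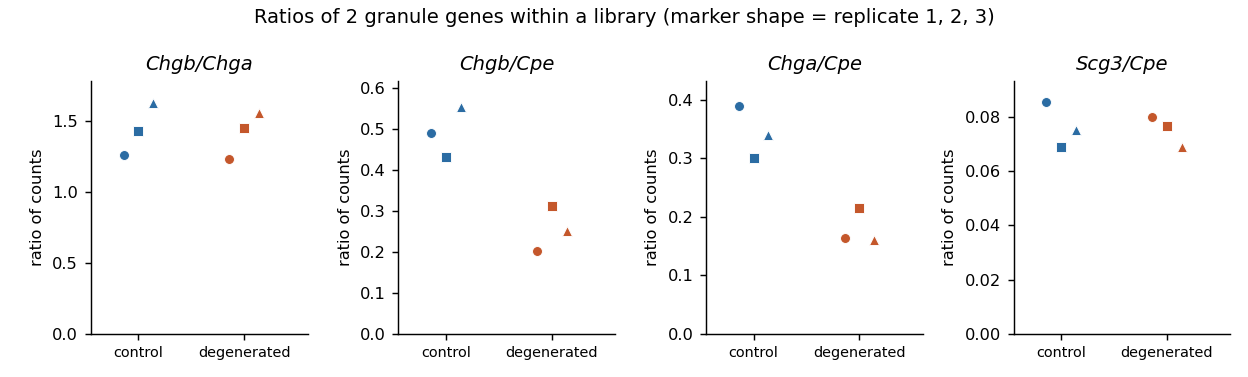
Ratio of the counts of 2 granule genes within each library (vertical axes from 0), with control libraries in blue and degenerated libraries in orange and marker shapes for replicate numbers. The ratio of Chgb to Chga covers the same range in both groups, between 1.24 and 1.63, while the ratios of both chromogranins to Cpe lie lower in all 3 degenerated libraries.

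The members were next set beside general neuronal transcripts of the same library, as the log2(CPM + 1) of a gene minus the mean log2(CPM + 1) of the 14 pan-neuronal genes. That mean itself was 8.47, 8.29 and 8.19 in control and 8.10, 8.01 and 7.75 in degenerated libraries, a difference of -0.37. On this scale Chgb was at 0.66, 0.51 and 0.95 in control and at -0.04, 0.34 and 0.20 in degenerated libraries, a difference of -0.54. Chga was at 0.32, -0.01 and 0.24 against -0.35, -0.20 and -0.44, a difference of -0.51. For both chromogranins every degenerated library lay below every control library on this scale too. In the other direction, Cpe differed by 0.42, Scg3 by 0.40, Pcsk2 by 0.20 and Scg2 by 1.01, each without overlap, while Scg5 (-0.12) and Pcsk1 (0.64) overlapped. The reference itself differed by -0.37 without overlap, so a gene with an unchanged CPM stands higher on this scale. In CPM the groups of Cpe, Scg3, Pcsk2 and Scg2 overlapped. The share of all genes without overlap on this scale was not determined. Without the neurofilament genes in the reference, Pcsk2 differed by 0.12 and its groups overlapped (exact permutation test, two-sided, p = 0.4). Scg5 differed by 0.064 without control replicate 3, and Pcsk1 by 0.26 without degenerated replicate 1. Each of the 6 differences without overlap had the smallest exact permutation p of 0.1 (two-sided), so no test on this scale could pass 0.05. 

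**Figure D4:**
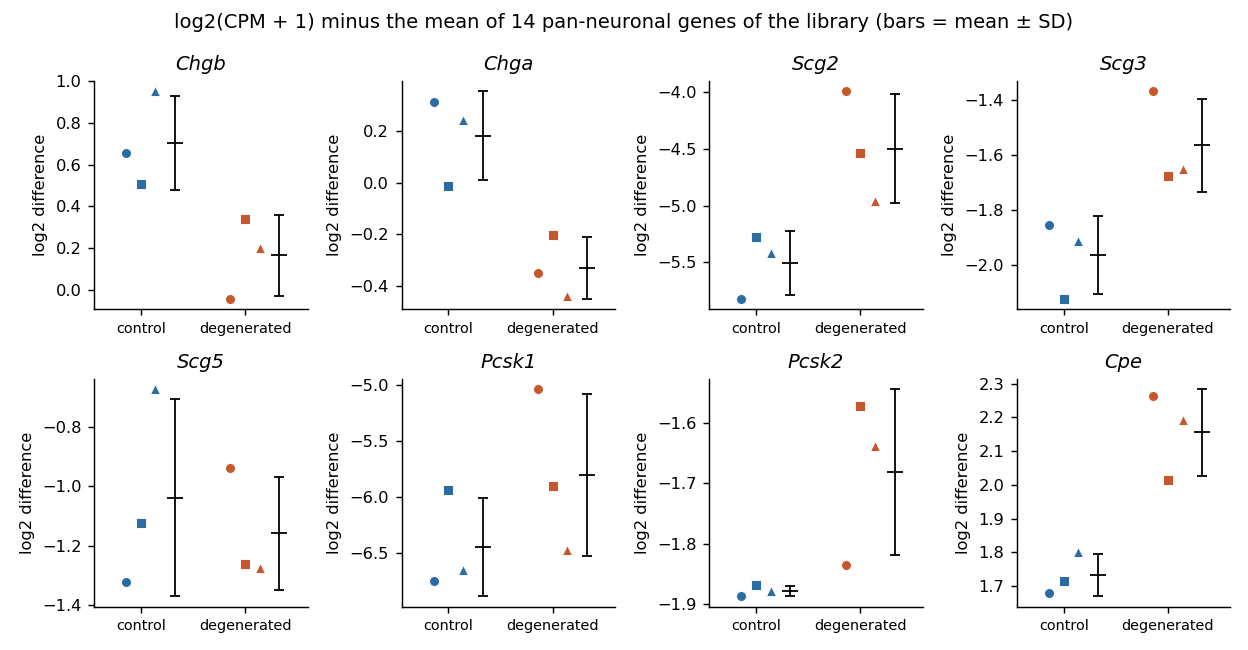
The log2(CPM + 1) of each granule gene minus the mean of 14 pan-neuronal genes of the same library (vertical axes, 1 scale per gene, not starting at 0), in control (blue) and degenerated (orange) libraries, with bars for the mean ± SD of 3 libraries. Chgb and Chga lie lower in degenerated libraries, Cpe, Scg3, Pcsk2 and Scg2 lie higher (Pcsk2 only with neurofilament genes in the reference), and Scg5 and Pcsk1 overlap.

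Other genes of the granule were taken from 4 lists of 112 genes, of which 67 were tested. Of these, 2 were called higher and 1 lower, beside 2.01% and 0.715% of all genes tested, and 0 passed 0.05 by edgeR after adjustment. Before adjustment 7 of the 67 passed it by edgeR, beside 9.68% of all genes tested, and 2 did after adjustment by DESeq2, beside 2.96% of all, so these shares were near those of all genes. The list of granule assembly and release held the 3 called genes among 28 tested, with a median log2 fold change of 0.10 and 15 positive against 13 negative. Vgf, a granin-like precursor that neurotrophins induce, had 8.14, 7.71 and 3.89 CPM in control and 17.8, 23.5 and 36.4 CPM in degenerated libraries. It rose by a log2 fold change of 1.97 (SE 0.42, adjusted p of 0.307 by edgeR and 0.00175 by DESeq2), with all 4 of its transcripts listed, and missed the criteria without degenerated replicate 3 (1.64, unadjusted p 0.0110).

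Ptprn, which encodes the granule membrane protein IA-2, had 107, 97.6 and 96.4 CPM in control and 166, 155 and 156 CPM in degenerated libraries. It rose by a log2 fold change of 0.66 (SE 0.10, adjusted p of 0.204 by edgeR and 2.59e-05 by DESeq2) with 3 of 6 transcripts listed. Rab3a, a small GTPase of secretory and synaptic vesicles, had 460, 400 and 360 CPM in control and 273, 293 and 206 CPM in degenerated libraries. Its log2 fold change was -0.66 (SE 0.17, adjusted p of 0.359 by edgeR), and it missed the criteria without control replicate 1 (-0.57), control replicate 2 (-0.67), degenerated replicate 1 (-0.72) or degenerated replicate 3 (-0.52). Ica1, a protein that acts in granule maturation, was next by p, with a log2 fold change of -0.43 (SE 0.13, adjusted p of 0.399 by edgeR) and groups that did not overlap. In the libraries in which Chgb and Chga were lower, Vgf and Ptprn were thus higher, and Rab3a and Ica1 lower. Of the 67 related genes tested, 7 did not overlap in the higher direction and 3 in the lower. Beside them, 10.3% and 7.37% of all genes tested did the same.

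**Figure D5:**
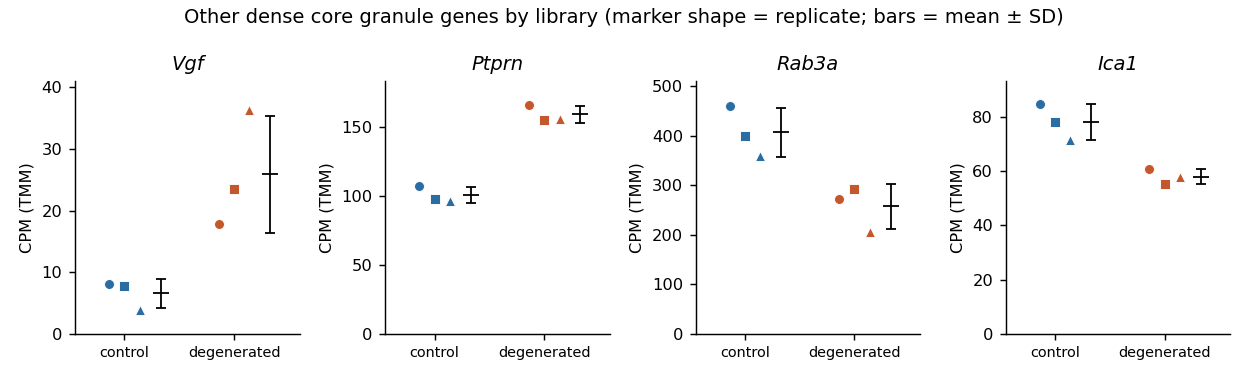
CPM of 4 other dense core granule genes in each library (vertical axes from 0), with control libraries in blue, degenerated libraries in orange, marker shapes for replicate numbers and bars for the mean ± SD of 3 libraries. Vgf and Ptprn lie higher and Rab3a and Ica1 lower in all 3 degenerated libraries.

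Of the processing enzymes beside the 8, 12 were tested and 0 were called by edgeR's test, 8 with a positive and 4 with a negative log2 fold change (median 0.16). Cpm, a membrane-bound carboxypeptidase, had 124, 98.3 and 90.0 CPM in control and 144, 166 and 133 CPM in degenerated libraries (log2 fold change 0.51, SE 0.16, adjusted p of 0.421 by edgeR). Pcsk5, a convertase of the constitutive pathway, had a log2 fold change of -0.41, and Qpct, which forms pyroglutamate at peptide ends, one of -0.22 that ranged from -0.44 to -0.070 with a library left out. Cpm met the criteria without control replicate 1 (0.64). The listed transcripts of Furin, the convertase of the trans-Golgi network, ranged from 4.91 to 83.4 CPM in control and from 5.99 to 186 CPM in degenerated libraries.

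Many peptide precursors were not listed or too low to test. Of 47 neuropeptide and growth factor precursors, 28 were listed and 16 tested, with 9 positive and 7 negative log2 fold changes (median 0.23) and 0 called by edgeR's test. The highest of them, picked out here after their values were seen, were Igf2 (insulin-like growth factor 2) with 49.4 to 459 CPM in control and 148 to 462 CPM in degenerated libraries, and Penk (proenkephalin) with 15.4 to 48.9 CPM and 18.6 to 70.7 CPM. Both overlapped between the groups. Calcb, which encodes a calcitonin gene-related peptide, had 1.06, 0.637 and 1.53 CPM in control and 4.79, 4.01 and 1.26 CPM in degenerated libraries (log2 fold change 1.63, SE 0.61, adjusted p of 0.480 by edgeR). The urocortin gene Ucn had 11, 0 and 2 counts in control and 21, 25 and 17 in degenerated libraries, Adm (adrenomedullin) had a log2 fold change of 0.69, and Edn1 (endothelin 1) one of 0.82. Single libraries moved these values. Adm was at 0.32 without degenerated replicate 2, and Edn1 at 0.48 without degenerated replicate 1. The criteria were met by Edn1 (1.19) and Calcb (2.02) without degenerated replicate 3, and by Ucn without control replicate 1. Npy, Sst, Gal and Adcyap1 had no listed transcript and are not analysed here. Among factors that act on granule or neuronal genes, 11 of 17 were tested and 0 were called by edgeR's test, with 6 positive and 5 negative (median 0.25). Neurod1 had 2.25, 1.56 and 1.72 CPM in control and 2.80, 1.48 and 17.0 CPM in degenerated libraries, so that degenerated replicate 3 alone stood out, and without it the log2 fold change was 0.21. Crem, of the CREB family, had a log2 fold change of 0.92 (SE 0.51), Gata3 one of 0.29 and Myt1l one of -0.30. Crem was at 0.30 without degenerated replicate 1. With a library left out Myt1l ranged from -0.41 to -0.17 and Gata3 from 0.12 to 0.51, the highest without degenerated replicate 1, where it met the criteria.

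The level of the 8 genes, standardised per gene and averaged, was 0.53, 0.07 and 0.07 in control and 0.61, -0.12 and -1.17 in degenerated libraries. Degenerated replicate 1 was the highest and degenerated replicate 3 the lowest, and the groups overlapped. The 8 genes did not move together, so opposite changes partly cancel in this mean. Chgb correlated at 0.96 with Chga, 0.74 with Scg5, 0.69 with Pcsk2 and 0.05 with Scg3 (Pearson r of log2(CPM + 1)). With Scg2 it was at -0.58, with Pcsk1 at -0.27 and with Cpe at -0.17. Among 14110 other genes, Efnb3, Rnf135, Mobp, Nwd1 and B230344G16Rik had the profiles most like this mean over the 6 libraries (Pearson r 0.981 to 0.993, as a description), and 153 genes had an r above 0.9. The groups overlapped in all 5.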

How the data were processed

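The authors extracted total RNA of the cochlear modiolus, aligned the reads with Hisat2 and evaluated expression with StringTie. They deposited 1 table of raw counts per Ensembl transcript, with 65535 transcripts and without normalization. The submitters' processing notes also name Bowtie 0.12.2. Which annotation and counting step they used is not given in these sources.

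The transcripts were matched to GENCODE M21 (GRCm38), where 65272 (99.6%) matched, and 263 with 0.125% of all counts were left out. Counts were added up per gene. Genes and, separately, transcripts were compared by edgeR 4.0.16 (R 4.3.3), after filterByExpr and TMM scaling (factors for genes between 0.983 and 1.02), with the robust quasi-likelihood F test over all 3 degenerated against 3 control libraries without covariates. Libraries of 1 group correlated at 0.913 to 0.948 (Pearson r of log2(CPM + 1)). Standard errors are the log2 fold change over the root of F. CPM use the TMM factors. TPM use annotated transcript lengths. Exact permutation tests used SciPy 1.17.1.

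Alternatives were DESeq2 1.42.0, limma-voom (limma 3.58.1), RLE size factors, no filter, a mean count of at least 10, genes with every transcript listed, a block for the replicate number, and leaving out each library. For the values relative to pan-neuronal genes they were a pseudocount of 0.5 CPM in place of 1 and a reference without neurofilament genes. Genes named are the 8 members, genes of the 4 lists called by the criteria or the 4 with the smallest p, including those called, in each list, and the 5 with the most similar profile. The members' rule uses symbols alone, but members, lists and rules were chosen with earlier results of these data known. On simulated counts of 14118 genes in 6 such libraries, 200 of them shifted by 2 on the log2 scale, the criteria recovered 73.2% of the shifted genes and called 0.912% of the others. That shift was larger than the change estimated for any of the 8 genes. The recovery of changes of their size was not simulated.

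Groups came from the labels, and doses, day, age and sex from the study's methods, which give several days for the model and day 30 for the RNA. The table holds part of the annotated transcripts, so a gene's count covers only those listed.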

Additional observations from a re-analysis of the deposited data

How the results depend on the processing

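Chgb kept its call under all 13 alternatives and Chga under 11 of 12. With each library left out, the log2 fold change lay between -1.04 and -0.83 for Chgb, -0.99 and -0.73 for Chga, 0.38 and 1.11 for Scg2, -0.69 and -0.32 for Scg5, and -0.27 and -0.09 for Pcsk2. Estimates near 0 changed sign when a library was left out, in ranges of -0.16 to 0.18 for Scg3 and -0.084 to 0.15 for Cpe. The estimate of Pcsk1, 0.54 with all libraries, ranged from -0.24 to 0.94 and was negative only without degenerated replicate 1. The cause was not tested.

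Among the transcripts, ranges with a library left out that included both signs were -0.61 to 0.093 for Chga-202, -0.11 to 0.10 for Cpe-201, -0.26 to 0.89 for Pcsk1-201, -0.42 to 0.60 for Scg2-202, -0.20 to 0.16 for Scg3-202 and -0.40 to 0.49 for Scg3-205. Chga-201 missed the criteria without control replicate 1, control replicate 3 or degenerated replicate 1. Scg2-201 passed them in DESeq2 (1.41). For Scg2-202 the estimate was -0.00092 in DESeq2, -0.00037 without a filter and -0.90 with the replicate block, and for Scg3-202 it was -0.013 in DESeq2 and with RLE factors, -0.016 without a filter and -0.0052 with the block.

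Over all genes, 284 were called higher and 101 lower in edgeR's test. DESeq2 called 479 and 306, the replicate block 160 and 58, and the 3470 genes with every transcript listed 82 and 53. With a library left out the counts were 144 to 339 and 76 to 158. Over all transcripts, 296 were called higher and 170 lower, DESeq2 called 657 and 555, the block 138 and 83, and with a library left out they were 211 to 412 and 152 to 230. Of the related lists, the block called 1 gene higher, DESeq2 called 2 lower, and with a library left out 2 to 4 were called higher and 0 to 1 lower. Values relative to pan-neuronal genes moved by less than 1 SD in all 64 alternatives, but without neurofilament genes in the reference Pcsk2 lost its separation (0.12), without control replicate 3 Scg5 changed sign (0.064), and without degenerated replicate 1 Pcsk1 fell to 0.26.

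Same-numbered libraries had correlations of their deviations from the group means of 0.160, -0.0905 and 0.0674, so the numbers were not taken to pair libraries. With the block, Chgb had a log2 fold change of -0.91 and Chga one of -0.88, both still within the criteria, and Vgf missed them (1.96, unadjusted p 0.0200). Control replicate 2 correlated best with degenerated replicate 3, not with its own number. The highest counts of Scg2 and Pcsk1 were 238 and 108, and libraries of 1 group differed widely in both.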
